A study of Mus musculus with 6 samples.

Results

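Poly(ADP-ribose) polymerases, the PARP family, are enzymes that move ADP-ribose from NAD onto proteins or nucleic acids, and Dtx3l is the ubiquitin ligase that pairs with one of them, Parp9. The 10 genes followed here were Parp9, Dtx3l, Parp14, Parp10, Parp12, Parp11, Parp1, Parp2, Parp3 and Parp8, found by Entrez gene ID in a table of 27179 genes. All 10 were found, and 9 of them were abundant enough to test among the 12916 tested genes of the table. Parp8 was the exception. They were taken from a list of symbols drawn up with earlier results of these data known, and no threshold on a measured value was part of the rule.

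RNA came from an acute myeloid leukemia in C57BL/6 mice, labelled A/E9a;NRASG12D after the leukemia fusion AML1-ETO9a, a short RUNX1-RUNX1T1 product, and a mutant NRAS. The mice received panobinostat, an inhibitor of histone deacetylases, or vehicle for 3 days, and 3 libraries were made per group. Living cells with GFP were then sorted from the spleen, so both groups carry the same fusion, the same mutant NRAS and the same GFP mark. The labels state neither the dose nor the age of the mice nor that the libraries are from different animals, and p-values cover only library-to-library spread, which could be technical.

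Libraries are called by the leading number of their count column, which gives panobinostat libraries 1, 5 and 6 and vehicle libraries 2, 3 and 4. After it each name holds 2 more numbers that neither the labels nor the table explain. Panobinostat libraries 1 and 6 have the first of these in common, vehicle libraries 2 and 3 have both in common, and library 1 alone has another last number. Panobinostat library 1 stood apart, since chi-square over gene counts, divided by its degrees of freedom, was 141 against library 5 and 112 against library 6, where libraries 5 and 6 gave 32.3, and pairs of vehicle libraries gave 13.2 to 29.5. Pairs of a panobinostat and a vehicle library gave 90.4 to 279. The lowest of these, panobinostat library 6 against vehicle library 3, was below both values of library 1 within its group. Total counts lay between 25794869 and 32571961 per library, and a single count was worth 0.0307 to 0.0388 CPM, counts scaled to library size. All 7 markers fixed for the leukemia cells were abundant enough to test in these libraries, with a summed level of 5730 to 6350 CPM in panobinostat libraries and 4412 to 5189 CPM in vehicle libraries. The sum hides opposite moves in panobinostat library 1, where Car2 alone was at 3996 CPM. In that library Car2, Gata1 and Gata2 were above all vehicle libraries, and Kit, Hdc, Ms4a2 and Cpa3 were below all of them. Kit was at 163 CPM there, against 210 to 221 CPM in vehicle libraries, and Hdc at 912 CPM, against 1130 to 1334 CPM. The 8 T and NK cell markers summed to at most 1.70 CPM in panobinostat and 1.10 CPM in vehicle libraries. Libraries were made from bulk RNA, so a change in the share of cells that carry a transcript and a change in RNA per cell cannot be told apart.

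As background, the family works in 2 settings that concern these samples. Parp1 and Parp2 bind broken DNA, build chains of ADP-ribose at the break and recruit repair proteins, and Parp3 attaches single ADP-ribose units at double-strand breaks. Parp9, Dtx3l, Parp10, Parp12 and Parp14 are known as interferon-stimulated genes, whose transcription follows when type I interferon activates ISGF3, a complex that contains STAT2 and IRF9, and Parp11 is grouped with them here as a gene linked to the interferon receptor.

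Transcripts of 5 of the 6 interferon-linked members were higher after panobinostat, by 2.49-fold to 3.19-fold, and Parp1 was 2.11-fold lower. Parp11, Parp2 and Parp3 did not pass the test. Calls were made by the quasi-likelihood test of edgeR with a Benjamini-Hochberg adjusted p under 0.05 over all tested genes, by which 11.3% of all tested genes were called higher and 9.72% lower. The median log2 fold change was 1.34 for the 6 interferon-linked members and 0.01 for all tested genes. In 5 of the 6 the panobinostat libraries lay above the vehicle libraries without overlap, an arrangement found in 21.9% of all tested genes, and in 2 of the 3 DNA-repair members they lay below, as in 22.7% of all tested genes. Levels below are CPM scaled by edgeR's composition factors (TMM).

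**Figure D1:**
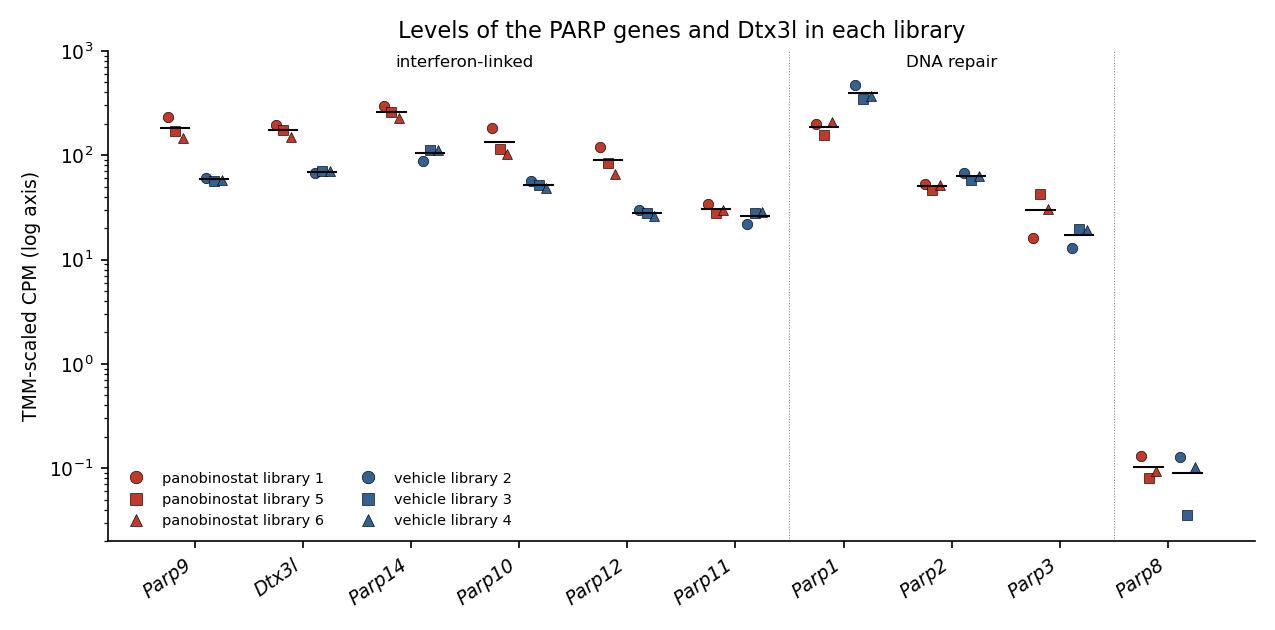
Level of each of the 10 genes in each library, as TMM-scaled CPM on a log axis, with panobinostat libraries in red to the left of vehicle libraries in blue and a black line at each group mean (n = 3). For Parp9, Dtx3l, Parp14, Parp10 and Parp12 every panobinostat point lies above every vehicle point, for Parp1 and Parp2 every panobinostat point lies below, and Parp8 stays near 0.1 CPM in both groups.

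Parp9 and Dtx3l encode the partners of one complex. Parp9 carries macrodomains, which bind ADP-ribose, and Dtx3l supplies the ubiquitin ligase activity. Both genes lie head to head on chromosome 16 of the mouse assembly GRCm38, Parp9 on the plus strand from 35938470 to 35972621 and Dtx3l on the minus strand from 35926515 to 35939027. Parp9 (Entrez gene 80285) was at 234, 170 and 145 CPM in panobinostat libraries 1, 5 and 6, against 60.5, 56.7 and 58.1 CPM in vehicle libraries 2, 3 and 4. All 3 panobinostat libraries were high and library 1 the highest, with no overlap between the groups. The log2 fold change of Parp9 was 1.65 ± 0.17 (SE, n = 3 each; edgeR adjusted p = 0.0041). Dtx3l (Entrez gene 209200) was at 197, 173 and 148 CPM in panobinostat libraries 1, 5 and 6, against 66.8, 70.9 and 69.8 CPM in vehicle libraries 2, 3 and 4. The groups of Dtx3l did not overlap, and the vehicle libraries lay within 1.06-fold of each other. Its log2 fold change was 1.32 ± 0.12 (SE, n = 3 each), with an edgeR adjusted p of 0.0027, the smallest of the 9 tested members.

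Reads of the pair cannot be separated in full, because Parp9 and Dtx3l overlap by 682 bases in the GENCODE annotation and share 458 exon bases, which are 9.40% of the exon bases of Parp9, and the sources used here do not say whether counting used strand. The number of Parp9 reads per Dtx3l read was 1.19, 0.986 and 0.976 in panobinostat libraries 1, 5 and 6, against 0.906, 0.800 and 0.831 in vehicle libraries 2, 3 and 4. Parp9 therefore gained on Dtx3l in all 3 panobinostat libraries, a description to which no test was applied.

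Parp14, the largest member, is a mono-ADP-ribosyltransferase with several macrodomains, known as a cofactor of STAT6. It lies beyond the other end of Dtx3l on chromosome 16, from 35831892 to 35871518 on the minus strand (Entrez gene 547253). Parp14 was at 297, 261 and 225 CPM in panobinostat libraries 1, 5 and 6, against 88.5, 112 and 112 CPM in vehicle libraries 2, 3 and 4. All panobinostat libraries were above all vehicle libraries, with vehicle library 2 the lowest. The log2 fold change of Parp14 was 1.33 ± 0.14 (SE, n = 3 each; edgeR adjusted p = 0.0041).

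Parp10 and Parp12 are mono-ADP-ribosyltransferases, Parp12 with zinc fingers that bind RNA and a known antiviral activity. Parp10 (Entrez gene 671535; chromosome 15, 76232995 to 76243440, minus strand) was at 183, 115 and 103 CPM in panobinostat libraries 1, 5 and 6, against 56.6, 51.4 and 48.8 CPM in vehicle libraries 2, 3 and 4. Its groups did not overlap, and panobinostat library 1 stood 1.78-fold above library 6. The log2 fold change of Parp10 was 1.36 ± 0.21 (SE, n = 3 each; edgeR adjusted p = 0.0091), and this call was lost without vehicle library 4 (log2 fold change 1.31, edgeR adjusted p = 0.056). Parp10 shares 205 exon bases with its same-strand neighbor Plec, which encodes the cytoskeletal linker plectin and was at 316 ± 152 CPM in panobinostat and 261 ± 78.6 CPM in vehicle libraries (SD, n = 3 each; edgeR adjusted p = 0.65).

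Parp12 (Entrez gene 243771; chromosome 6, 39086412 to 39118349, minus strand) was at 119, 83.8 and 66.0 CPM in panobinostat libraries 1, 5 and 6, against 29.8, 28.2 and 26.3 CPM in vehicle libraries 2, 3 and 4. The lowest panobinostat library was above the highest vehicle library, and the vehicle libraries were close together. Parp12 had the highest log2 fold change of the 9 tested members, 1.67 ± 0.21 (SE, n = 3 each; edgeR adjusted p = 0.0050), near that of Parp9. The antisense gene 4930599N23Rik starts 124 bases from Parp12 on the other strand in the GENCODE annotation and shares no exon bases with it. It had 12, 14 and 13 counts in panobinostat libraries 1, 5 and 6, against 8, 6 and 5 counts in vehicle libraries 2, 3 and 4, without overlap, and its log2 fold change of 1.06 ± 0.37 (SE, n = 3 each) did not pass (edgeR adjusted p = 0.084).

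Parp11 (Entrez gene 101187; chromosome 6, 127446830 to 127514233, plus strand) is a mono-ADP-ribosyltransferase reported to act on the turnover of the interferon receptor chain IFNAR1. Parp11 was at 33.7, 28.2 and 29.5 CPM in panobinostat libraries 1, 5 and 6, against 22.1, 28.1 and 28.6 CPM in vehicle libraries 2, 3 and 4. The groups overlapped, since panobinostat library 5 was below vehicle library 4. The log2 fold change was 0.22 ± 0.14 (SE, n = 3 each) and did not pass (edgeR adjusted p = 0.29; 0.26 to 0.60 over all alternatives). A test of the difference between Parp11 and the other interferon-linked members was not run.

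**Figure D2:**
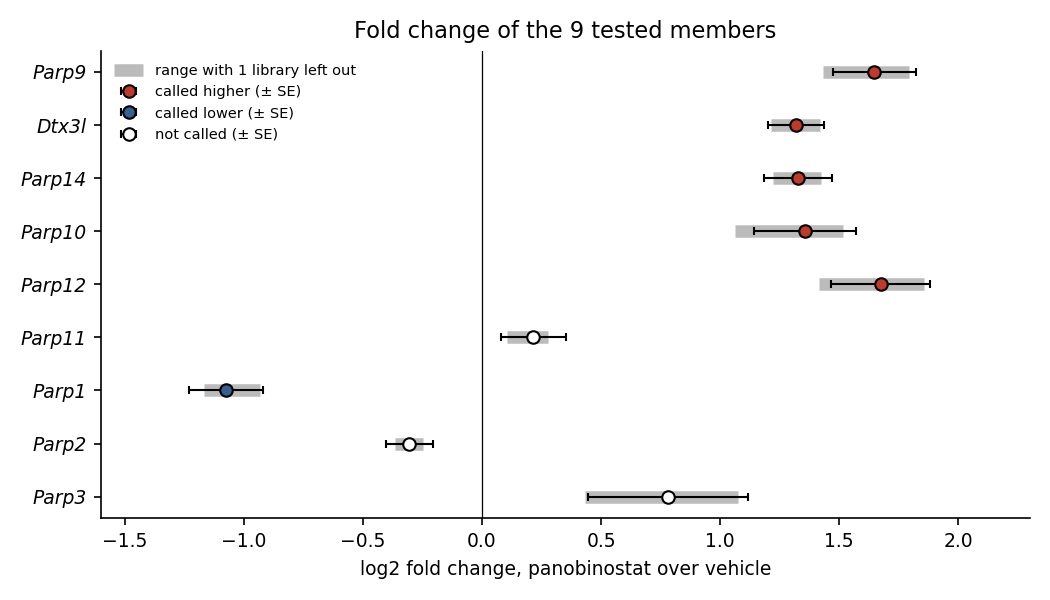
Log2 fold change of panobinostat over vehicle for the 9 tested members from edgeR's quasi-likelihood fit, with bars for the standard error and grey bands for the range when any 1 of the 6 libraries was left out. Parp9, Dtx3l, Parp14, Parp10 and Parp12 lie between 1.32 and 1.67, Parp11 at 0.22, Parp1 at -1.08, Parp2 at -0.31 and Parp3 at 0.78.

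Promoter sequence was compared for 7 of the 10 members, with windows from a table of RefSeq promoters on GRCm38.p6. Parp9, Parp14 and Parp10 were not analysed here in this respect. Windows ran from 250 bases before to 50 bases after the annotated start. They were searched on both strands for the core of the interferon-stimulated response element bound by ISGF3, which is TTTC, any 2 bases and TTTC, and for the gamma-activated sequence TTCNNNGAA. The first occurred in 3.44% and the second in 8.30% of 32851 windows of this length. Among the 7 members, Parp11 alone held either, at the first of its 2 annotated starts, position 127446840, which lies 10 bases inside the gene's outer bound given above. Counted from that position, it had TTTCGATTTC from 44 to 35 bases and TTCTTGGAA from 37 to 29 bases before the start, and the 2 matches overlap by 3 bases. Of the ISGF3 and receptor genes with a window, 1 of 7 held the first and 2 of 7 the second. The 250 bases before the start are shown, 5′ to 3′ on the strand of each gene, for Parp11 with both matches in capitals (chr6:127446590-127446839, plus strand), for Dtx3l (chr16:35939028-35939277, minus strand) and Parp12 (chr6:39118350-39118599, minus strand), which rose, and for Parp1 (chr1:180568641-180568890, plus strand), which fell. The last 3 hold no capitals because neither motif was found in them.
Parp11: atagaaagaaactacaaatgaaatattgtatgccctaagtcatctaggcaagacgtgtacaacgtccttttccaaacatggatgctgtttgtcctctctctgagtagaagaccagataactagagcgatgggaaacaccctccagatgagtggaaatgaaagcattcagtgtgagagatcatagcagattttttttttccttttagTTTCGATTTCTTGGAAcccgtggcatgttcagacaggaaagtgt
Dtx3l: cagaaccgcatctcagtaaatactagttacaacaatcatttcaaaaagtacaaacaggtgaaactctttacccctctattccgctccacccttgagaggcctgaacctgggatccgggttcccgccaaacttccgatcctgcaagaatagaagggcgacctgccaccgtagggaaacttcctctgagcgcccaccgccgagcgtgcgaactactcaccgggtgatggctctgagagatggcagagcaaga
Parp12: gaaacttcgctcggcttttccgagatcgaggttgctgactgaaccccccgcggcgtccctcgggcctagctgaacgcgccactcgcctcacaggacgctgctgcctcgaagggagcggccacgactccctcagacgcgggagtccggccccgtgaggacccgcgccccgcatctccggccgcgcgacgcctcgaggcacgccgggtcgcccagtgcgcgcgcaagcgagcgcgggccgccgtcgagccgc
Parp1: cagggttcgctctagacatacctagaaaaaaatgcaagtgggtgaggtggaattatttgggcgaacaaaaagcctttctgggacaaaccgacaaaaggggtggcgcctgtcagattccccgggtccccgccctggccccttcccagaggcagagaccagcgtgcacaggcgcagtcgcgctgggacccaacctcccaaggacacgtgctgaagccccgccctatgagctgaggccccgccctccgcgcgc
Parp11, whose window held both motifs, did not pass the test for a change in level. Of the interferon-linked members only Parp11, Dtx3l and Parp12 had a window, and a link between motifs and levels was not tested. A match is a description of letters, and the absence of one says only that these letters are not in this window.

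Parp1 makes most of the poly(ADP-ribose) in a damaged cell. Parp1 (Entrez gene 11545; chromosome 1, 180568891 to 180600999, plus strand) was at 197, 156 and 206 CPM in panobinostat libraries 1, 5 and 6, against 466, 342 and 368 CPM in vehicle libraries 2, 3 and 4. Every panobinostat library was below every vehicle library. The log2 fold change of Parp1 was -1.08 ± 0.16 (SE, n = 3 each; edgeR adjusted p = 0.0072). A fall of at least 2-fold that passed the test was found in 1.49% of all tested genes, and a rise of that size, as in the 5 called interferon-linked members, in 4.93%.

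Parp2 (Entrez gene 11546; chromosome 14, 50807897 to 50821301, plus strand), the other polymerase that DNA breaks activate, was at 52.9, 46.5 and 52.2 CPM in panobinostat libraries 1, 5 and 6, against 67.0, 57.4 and 63.0 CPM in vehicle libraries 2, 3 and 4. The groups of Parp2 did not overlap, but the log2 difference of -0.31 ± 0.10 (SE, n = 3 each) missed the threshold (edgeR adjusted p = 0.067). Parp2 passed with DESeq2 (adjusted p = 0.049), which called 13.1% of its tested genes lower, with library size alone as the scaling (edgeR adjusted p = 0.028) and without panobinostat library 1 (edgeR adjusted p = 0.041), and its adjusted p over all alternatives ran from 0.028 to 0.20. The RNA component of RNase P, Rpph1, starts 74 bases from Parp2 on the other strand and had 30 counts in the 3 panobinostat libraries and 70 in the 3 vehicle libraries (edgeR adjusted p = 0.12).

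Parp3 (Entrez gene 235587; chromosome 9, 106470322 to 106476949, minus strand) was at 16.1, 42.3 and 30.2 CPM in panobinostat libraries 1, 5 and 6, against 13.0, 19.6 and 19.0 CPM in vehicle libraries 2, 3 and 4. Panobinostat library 1 lay among the vehicle libraries, while libraries 5 and 6 were above all of them. The log2 fold change was 0.78 ± 0.34 (SE, n = 3 each; edgeR adjusted p = 0.14), and without panobinostat library 1 it was 1.08 and passed (edgeR adjusted p = 0.012). Rrp9, an rRNA processing gene that starts 986 bases from Parp3 on the other strand and shares 20 exon bases with it, fell to 49.7 ± 6.01 CPM in panobinostat libraries, against 79.4 ± 7.30 CPM in vehicle libraries (SD, n = 3 each; edgeR adjusted p = 0.012).

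Parp8, a mono-ADP-ribosyltransferase that is little studied, was close to undetected (Entrez gene 52552; chromosome 13, 116850842 to 117026019, minus strand). It had 4, 2 and 3 counts in panobinostat libraries 1, 5 and 6 and 4, 1 and 3 counts in vehicle libraries 2, 3 and 4. A difference was not detectable at this depth, and no fold change is given.

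Counts of each member were then set against those of Parp1 in the same library, a ratio in which library size and composition factors cancel. The interferon-linked members gained on Parp1 in every panobinostat library. Parp14 had 1.51, 1.67 and 1.10 reads per Parp1 read in panobinostat libraries 1, 5 and 6, against 0.190, 0.328 and 0.303 in vehicle libraries 2, 3 and 4. Parp9 had 1.19, 1.09 and 0.704 reads per Parp1 read in panobinostat libraries 1, 5 and 6, against 0.130, 0.166 and 0.158 in vehicle libraries 2, 3 and 4. The ratio to Parp1 was 6.52-fold higher with panobinostat for Parp12, 6.46-fold for Parp9, 5.27-fold for Parp14, 5.22-fold for Parp10 and 5.21-fold for Dtx3l, and 2.45-fold for Parp11. Parp3 (3.41-fold) and Parp2 (1.70-fold) also gained on Parp1, so Parp1 lost ground to all 8 other members with enough counts.

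The groups did not overlap in any of these 8 ratios. The ratios are not independent, since all are divided by Parp1, which itself fell 2.11-fold. A member with an unchanged level would thus also gain on Parp1. Each gave p = 0.1 in a 2-sided exact permutation test over the 6 libraries, the smallest value that this test can give for 3 against 3 libraries, and 0.1 after adjustment over the 8 ratios, so the exact test cannot take a single ratio past 0.05 here. Against Parp2 in place of Parp1 the gains were 3.83-fold for Parp12, 3.79-fold for Parp9, 3.10-fold for Parp14, 3.07-fold for Parp10, 3.06-fold for Dtx3l and 1.44-fold for Parp11, each with an exact permutation p of 0.1 and 0.11 after adjustment over 8 ratios. The ratio of Parp3 to Parp2 had overlapping groups (exact permutation p = 0.2; 0.2 adjusted).

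**Figure D3:**
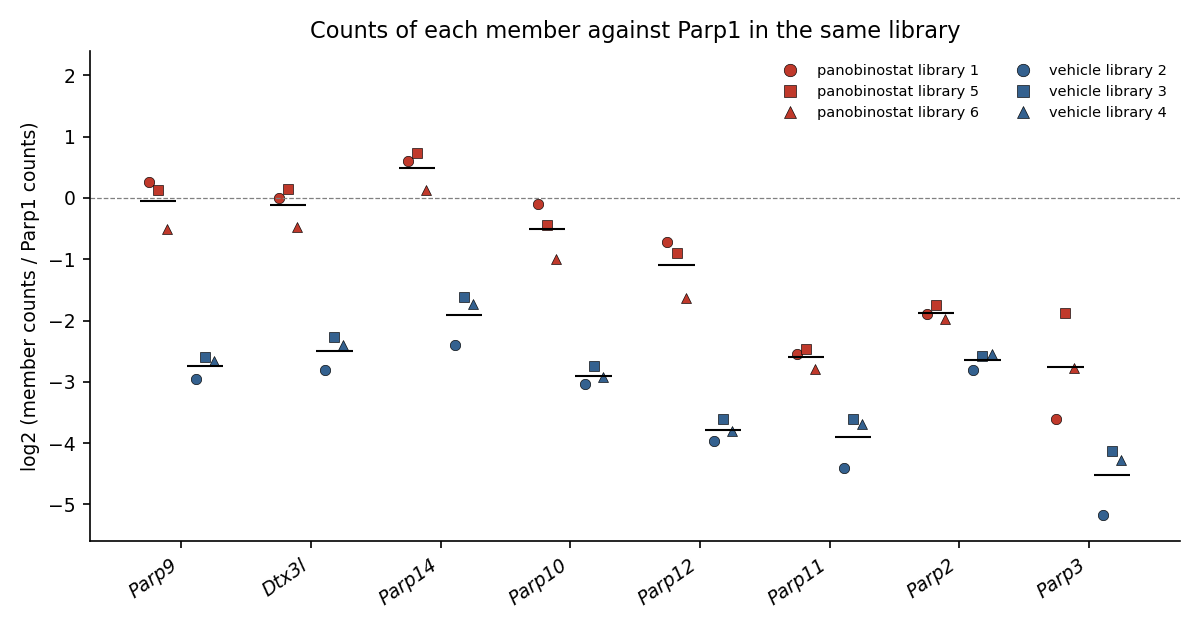
Log2 ratio of each member's counts to Parp1 counts within a library, with panobinostat libraries in red to the left of vehicle libraries in blue and a black line at each group mean (n = 3). The dashed line marks equal counts. Parp14 lies above it in all 3 panobinostat libraries and near -1.91 on average in vehicle libraries, and in all 8 members the panobinostat points lie above the vehicle points.

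To compare levels between genes, CPM were divided by the length of all annotated exons of a gene in kb (GENCODE M21). With panobinostat the order of mean levels was Parp9 (37.6 ± 9.43 CPM per kb, SD, n = 3), Parp1 (35.2 ± 4.96), Parp10 (31.3 ± 10.1), Dtx3l (30.1 ± 4.21), Parp14 (28.1 ± 3.86), Parp12 (22.4 ± 6.77), Parp2 (13.9 ± 0.976), Parp3 (7.99 ± 3.54) and Parp11 (4.34 ± 0.412). The first 6 overlapped with the gene next to them in that order, Parp2 stood without overlap between Parp12 and Parp3, and Parp3 and Parp11 overlapped. With vehicle Parp1 stood first at 74.1 ± 12.4 CPM per kb (SD, n = 3), followed without overlap by Parp2 at 17.2 ± 1.33. Parp10, Dtx3l, Parp9 and Parp14 came next, between 11.2 and 12.2 CPM per kb, with each overlapping its neighbor. Parp12 at 7.03 ± 0.431 CPM per kb was below these without overlap, and Parp3 and Parp11, at 4.65 ± 0.993 and 3.74 ± 0.515, overlapped. Parp1 was thus well apart from every other member in vehicle libraries and overlapped with Parp9, Parp10, Dtx3l, Parp14 and Parp12 in panobinostat libraries. With the longest transcript as the length, a choice added after the data were seen, Parp1 kept rank 1 in vehicle and rank 2 in panobinostat libraries.

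**Figure D4:**
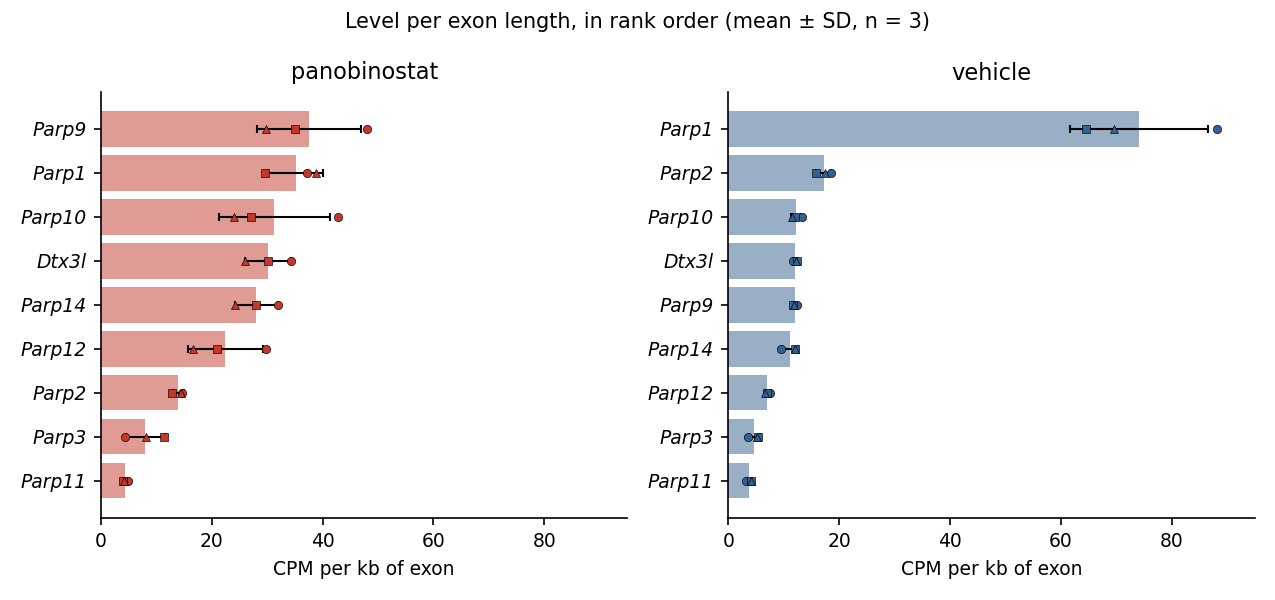
Level of 9 members in CPM per kb of exon, in rank order within panobinostat libraries (left) and vehicle libraries (right), with bars for the mean, error bars for the SD (n = 3) and points for the libraries. Parp1 is at 74.1 CPM per kb in vehicle libraries and at 35.2 in panobinostat libraries, beside Parp9 at 37.6.

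The panobinostat libraries followed one order in all 5 interferon-linked members that rose, with library 1 highest and library 6 lowest. The spread between those 2 libraries was 1.81-fold for Parp12, 1.78-fold for Parp10, 1.62-fold for Parp9, 1.33-fold for Dtx3l and 1.32-fold for Parp14, while vehicle libraries differed by at most 1.27-fold in these genes. Library 1 also had the highest summed level of the 10 red pulp macrophage markers, at 55.2 CPM. Panobinostat libraries 5 and 6 had 20.3 and 11.2 CPM, and vehicle libraries 7.70 to 16.6 CPM. Of these 10 markers edgeR called 1 higher, Vcam1, DESeq2 called 2 and limma-voom 0, and 0 were called lower. Among all tested genes edgeR called 11.3% higher and 9.72% lower. DESeq2 called 1872 of 12908 genes higher and limma-voom 1373 of 12916. At an unadjusted p under 0.05, 3 of the 10 markers were higher with edgeR, 4 with DESeq2 and 1 with limma-voom. The log2 fold changes of these markers were all positive. The 8 plasmacytoid dendritic cell markers summed to 13.2, 5.65 and 7.54 CPM in panobinostat libraries 1, 5 and 6. In vehicle libraries they summed to 4.73 to 7.50 CPM. Of the 4 abundant enough to test, 0 were called by edgeR, DESeq2 or limma-voom, with 0 at an unadjusted p under 0.05. Their log2 fold changes were 0.92 for Tcf4, 0.85 for Irf8, 0.02 for Ly6d and -0.01 for Ccr9. Irf8 was higher in every panobinostat library than in any vehicle library. The defining marker Siglech, too low to test, was at a mean of 0.011 CPM in panobinostat and 0.045 CPM in vehicle libraries. The 6 mature erythroid markers found summed to 49743, 24602 and 21739 CPM in panobinostat libraries 1, 5 and 6 and to 4662 to 5788 CPM in vehicle libraries, with 5 of 6 called higher. Monocyte and neutrophil markers summed to 27.4, 42.9 and 30.8 CPM in panobinostat libraries 1, 5 and 6. Vehicle libraries had 15.2 to 20.6 CPM. For endothelial and stromal markers, 2 of 5 abundant enough to test, the sums were 3.33, 11.3 and 5.14 CPM in that order. In vehicle libraries they were 0.969 to 1.60 CPM. Both marker sums were highest in library 5. B cell sums overlapped between the groups. Without library 1 the 5 members were still called, with log2 fold changes of 1.43 for Parp9, 1.41 for Parp12, 1.22 for Dtx3l and Parp14 and 1.06 for Parp10 (edgeR adjusted p from 0.00032 to 0.0019). Leaving out library 1 keeps libraries 5 and 6, whose erythroid sums were also above those of all vehicle libraries. Erythroid transcripts of the leukemia cells and of other cells cannot be told apart in bulk RNA. The part of other cells in these values was not tested.

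Most other genes of the family did not pass the test. Of 7 further PARP genes, all tested, 1 rose and 0 fell in edgeR, DESeq2 and limma-voom alike, with 0 lower at an unadjusted p under 0.05 and a median log2 fold change of 0.15 against 0.01 for all tested genes. With edgeR, 11.3% of all tested genes were called higher and 9.72% lower. The one that rose was Zc3hav1, the antiviral zinc finger protein also counted as Parp13, which binds viral RNA and has no known ADP-ribosyl transfer activity. Zc3hav1 was at 216 ± 18.5 CPM in panobinostat libraries and 144 ± 11.3 CPM in vehicle libraries (SD, n = 3 each; log2 fold change 0.58, edgeR adjusted p = 0.012), a call lost without vehicle library 4 (edgeR adjusted p = 0.071). Parp4, Parp6, Parp16, Tnks, Tnks2 and Tiparp, which is also known as Parp7, lay between -0.34 and 0.45 on the log2 scale. Among the other deltex genes, relatives of Dtx3l, 2 of 4 were abundant enough to test and 0 were called by edgeR or limma-voom, 1 by DESeq2, and 1 had an unadjusted p under 0.05 in edgeR. The tested genes were Dtx3 at 219 ± 66.5 CPM in panobinostat and 146 ± 17.9 CPM in vehicle libraries (SD, n = 3 each; edgeR adjusted p = 0.083) and Dtx2, with a log2 difference of 0.06 ± 0.10 (SE; edgeR adjusted p = 0.73).

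Enzymes that remove or read ADP-ribose showed no common direction. Of 12 genes 9 were tested, 1 rose and 1 fell, with a median log2 fold change of 0.08. This is near the share of all tested genes, 11.3% called higher and 9.72% lower. Adprh, a hydrolase that takes ADP-ribose off arginine, rose to 142 ± 7.99 CPM in panobinostat libraries, against 102 ± 0.883 CPM in vehicle libraries (SD, n = 3 each; edgeR adjusted p = 0.011). Macroh2a1, the macrodomain histone variant, fell to 123 ± 21.4 CPM in panobinostat libraries, against 175 ± 7.88 CPM in vehicle libraries (edgeR adjusted p = 0.039). Parg, which breaks down the chains that Parp1 builds, was at 77.0 ± 14.4 CPM in panobinostat and 86.0 ± 3.82 CPM in vehicle libraries (edgeR adjusted p = 0.45), named after its value was seen. The call of Adprh was lost without vehicle library 2 or 4, and that of Macroh2a1 without any 1 vehicle library or panobinostat library 6.

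Genes of single-strand break repair, in which Parp1 and Parp2 act, had a median log2 fold change of -0.32. Of 16 tested genes 0 rose, also with DESeq2 and limma-voom and at an unadjusted p under 0.05, and 3 fell with edgeR, 5 with DESeq2 and 2 with limma-voom. At an unadjusted p under 0.05, 9 were lower with edgeR, 9 with DESeq2 and 10 with limma-voom, with no all-gene share given at that threshold. For all tested genes the share called lower was 9.72% with edgeR and 13.1% with DESeq2, and limma-voom called 1268 of 12916 lower. Those that fell with edgeR were Apex1, the endonuclease that cuts at lost bases, Lig1, the replicative DNA ligase, and Tdp1, which clears topoisomerase adducts. Their log2 fold changes were -0.71 ± 0.12 for Apex1, -0.62 ± 0.16 for Lig1 and -0.43 ± 0.13 for Tdp1 (SE, n = 3 each; edgeR adjusted p = 0.012, 0.032 and 0.050). Xrcc1, the scaffold that ADP-ribose chains recruit, was at 50.5 ± 3.49 CPM in panobinostat and 62.7 ± 6.39 CPM in vehicle libraries and did not pass (edgeR adjusted p = 0.076), and Hpf1, the cofactor that lets Parp1 and Parp2 modify serine, was at 68.0 ± 6.65 CPM in panobinostat and 74.0 ± 3.79 CPM in vehicle libraries (edgeR adjusted p = 0.41). Xrcc1 and Hpf1 were named after their values were seen. The call of Apex1 was lost without vehicle library 4, that of Lig1 without vehicle library 2 or 4 or panobinostat library 5, and that of Tdp1 without any 1 library other than panobinostat library 6.

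Genes that make or use NAD, the substrate of the PARP enzymes, moved both ways. Of 16 genes 14 were tested, 3 rose and 2 fell, with a median log2 fold change of 0.27. Among all tested genes 11.3% were called higher and 9.72% lower, and these counts are small numbers that were not tested against that share. DESeq2 called 4 of the 14 higher and 2 lower, where it called 1872 and 1694 of 12908 genes. At an unadjusted p under 0.05, 5 were higher and 3 lower with edgeR. Nmnat2 and Nmrk1, which act in NAD synthesis, rose by 0.82 ± 0.24 and 0.76 ± 0.19 on the log2 scale (SE, n = 3 each; edgeR adjusted p = 0.049 and 0.030). The deacetylase gene Sirt2 rose by 0.56 ± 0.10 (edgeR adjusted p = 0.012). Naprt, which makes NAD from nicotinic acid, had a log2 fold change of -0.63 ± 0.18 (edgeR adjusted p = 0.047) and the deacetylase gene Sirt1 of -0.41 ± 0.08 (edgeR adjusted p = 0.018). Nampt, the salvage enzyme that supplies most NAD in many cells and was named after its value was seen, was at 51.2 ± 2.57 CPM in panobinostat and 49.7 ± 3.95 CPM in vehicle libraries (edgeR adjusted p = 0.78). The call of Nmnat2 was lost without any 1 of the 6 libraries and that of Sirt2 without vehicle library 2 or 4. Those of Nmrk1, Naprt and Sirt1 were lost without any 1 vehicle library, that of Naprt also without panobinostat library 6 and that of Sirt1 also without panobinostat library 5.

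Stat2 and Irf9, which encode parts of ISGF3, rose within the range of the PARP members. Stat2 was at 205, 146 and 112 CPM in panobinostat libraries 1, 5 and 6, against 51.2, 51.1 and 47.0 CPM in vehicle libraries 2, 3 and 4. All panobinostat libraries were above all vehicle libraries. Log2 fold changes were 1.63 ± 0.21 for Stat2 and 1.36 ± 0.16 for Irf9 (SE, n = 3 each; edgeR adjusted p = 0.0051 and 0.0043), and both had library 1 highest and library 6 lowest among panobinostat libraries, as Irf7 did. Of the 7 ISGF3 and receptor genes reported here 4 rose, with Irf7 at 3.68 ± 0.35 and Ifnar1 at 0.48 ± 0.12, and 0 fell, also at an unadjusted p under 0.05 and with DESeq2 and limma-voom. The edgeR share over all tested genes was 11.3% higher and 9.72% lower. The call of Ifnar1 was lost without any 1 vehicle library or panobinostat library 5. Ifnar2, Jak1 and Tyk2, which carry the signal from the receptor, were at 0.34 ± 0.13, 0.18 ± 0.13 and 0.40 ± 0.14 on the log2 scale and did not pass (edgeR adjusted p = 0.098, 0.35 and 0.076).

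**Figure D5:**
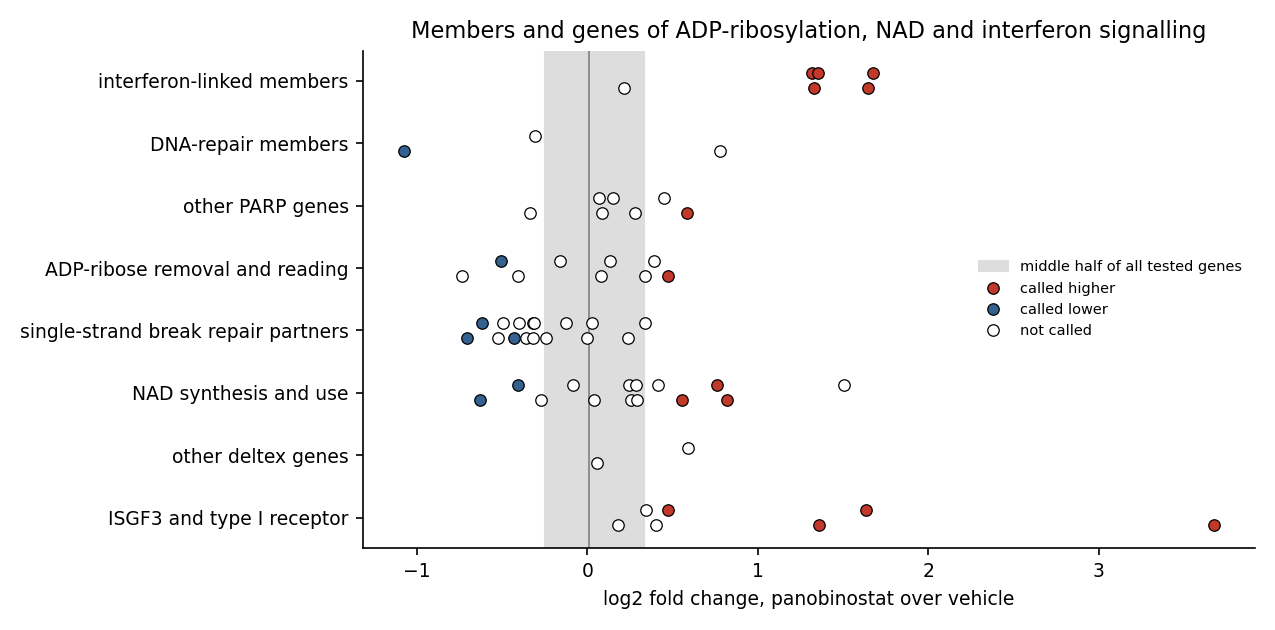
Log2 fold change of panobinostat over vehicle for every tested gene of the 2 member groups and of the 6 lists of related genes, with red for genes called higher, blue for genes called lower and white for genes not called, and a grey band from -0.25 to 0.33 for the middle of all tested genes (25th to 75th percentile). Of the interferon-linked members 5 of 6 lie to the right of 1, as do Stat2, Irf9 and Irf7. Cd38 of the NAD list also lies there, at 1.51, and was not called. Parp1 lies furthest to the left.

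Genes whose levels over the 6 libraries were most like those of Dtx3l and of Parp1 were sought among 9367 named and tested genes that averaged 5 CPM or more, by the Euclidean distance between log2 profiles centred on their own means. The 5 nearest to Dtx3l were Adgrg1, an adhesion receptor (distance 0.14), Trim12c, a tripartite motif gene with close copies that may share its reads (0.16), Agrn, the proteoglycan agrin (0.17), Adar, which edits adenosine in double-stranded RNA (0.18), and Shisa5, a membrane protein (0.18). They were 1.27 to 1.33 higher with panobinostat on the log2 scale. The 5 nearest to Parp1 were Cdc20, an activator of the anaphase-promoting complex (distance 0.099), the helicase gene Pif1 (0.17), Ccnb1, the mitotic cyclin B1 (0.18), Spag5 of the mitotic spindle (0.19) and the kinesin gene Kif2c (0.20). Their log2 fold changes lay between -1.12 and -0.97. These distances describe 6 libraries in 2 groups, so any gene with a like fold change and little spread comes near.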

How the data were processed

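The authors deposited raw read counts per Entrez gene, 1 column per library, for GFP-positive leukemia cells. Per the labels' protocols, libraries came from 1 ug of total RNA with an Illumina TruSeq kit, and per the submitters' processing notes HISAT2 2.1.0, featureCounts from Subread 2.0.0 and the build mm10 were used. The sources used here give no annotation, strand setting or rule for multi-mapping reads. Column names give the group and 3 numbers but no replicate number of the labels, and 0 columns were left unused.

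Members were matched by Entrez gene ID to RefSeq (GRCm38.p6). Low genes were removed with filterByExpr, libraries scaled by TMM, and the groups compared with the quasi-likelihood test of edgeR 4.0.16 (R 4.3.3), without covariates and with Benjamini-Hochberg adjustment over 12916 genes. Fold changes are edgeR's log2 values, with standard errors as the absolute log2 fold change over the square root of F. Within-library ratios used counts plus 0.5 and exact permutation tests (scipy 1.17.1). No pair of libraries was a duplicate (chi-square per degree of freedom at least 13.2). On simulated counts for this comparison's 12916 genes the test recovered 82.1% of 2-fold, 91.0% of 2.83-fold and 98.5% of 4-fold changes, with 3.21% of calls false. The simulation took each gene's spread from the fitted trend alone and had no outlying library. It changed few genes, none of them near the floor, equally often up and down. The real libraries differ in these respects, so the rates need not hold for them. Alternatives were DESeq2 1.42.0, limma-voom (limma 3.58.1), robust shrinkage, other scalings and filters, globin removal and leaving out each library.

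The members and lists were chosen with earlier results of these data known. Named genes were all members, every called gene of the further lists (at most 6 each), 7 genes of the ISGF3 and receptor list (1 more was listed and is not reported here, and no count of that list includes it), neighbors overlapping a member or starting within 1000 bases of its start (GENCODE M21), and the 5 genes most alike. Neighbors absent from the count table or at 0 counts are left out of the text. Red cell, monocyte and neutrophil, B cell and endothelial and stromal markers were also listed: 5 of 6, 2 of 7, 0 of 4 and 2 of 2 tested genes were called higher and 0 lower, as were 2 of 7 leukemia markers. Over all tested genes edgeR called 11.3% higher and 9.72% lower. For B cells the count was also 0 with DESeq2, limma-voom and at an unadjusted p under 0.05. The 8 T and NK cell markers were too low to test.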

Additional observations from a re-analysis of the deposited data

How the results depend on the processing

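The 5 called interferon-linked members and Parp1 kept their direction in every alternative run and their calls in all of them, except that Parp10 missed the threshold without vehicle library 4. The members called higher numbered 4 to 6 when a library was left out, with 6 without panobinostat library 1, where Parp3 passed, and the members called lower numbered 1 to 2. Parp1 and Parp2 were both called lower, making 2, with DESeq2, with library size alone and without panobinostat library 1. All 63 alternatives of the ratios to Parp1 kept their direction, but they reuse the same libraries and reference genes and are not independent. Over all genes, calls ranged from 438 to 4056 with a library left out (higher 303 to 2192, lower 135 to 1864), and were 438, 609 and 1259 when vehicle library 4, 2 or 3 was dropped and 1637 and 4056 when panobinostat library 5 or 1 was dropped. Using library size alone for scaling put the all-gene median log2 fold change at -0.10, against 0.01, gave 1135 higher and 2065 lower genes (35.5% higher, against 53.8%), and put Parp11 at 0.11, Parp9 at 1.54 and Parp1 at -1.18. The cause of these changes was not tested. Using the longest transcript as length reordered neighbors whose libraries overlapped. With 3 against 3 libraries no exact permutation p can be below 0.1, and Parp8 is limited by depth. No paired analysis was possible because the count columns carry no replicate number of the labels.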
